A study of Mus musculus with 8 samples.

Results

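The genes described here are 10 regulators of the integrated stress response that work with or around the transcription factor ATF4. They were taken by symbol from a deposited table of 54232 mouse gene rows: Atf4, Atf5, Ddit3, Trib3, Atf3, Cebpb, Cebpg, Nupr1, Ppp1r15a and Eif2ak4. Each symbol matched 1 row, and all 10 passed the filter on low values and were among the 19054 genes tested. RNA was sequenced from 3 libraries of cells given the solvent DMSO and 3 of cells given C28 for 3 h, both of C57BL/6 background and with no genetic change named. C28 (028 in the titles) has no name in the labels other than this code, and no dose is stated. The labels call the cells female germline stem cells, mitotic germ cells of the ovary grown in culture, and the series concerns autophagy after C28. The labels do not say whether replicates were separate cultures, so each p-value speaks only to the spread among these 6 libraries, and part of that spread could be technical.

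The integrated stress response starts when one of several kinases phosphorylates the translation factor eIF2α, for example GCN2 (Eif2ak4) during amino acid shortage or PERK (Eif2ak3) during stress in the endoplasmic reticulum. General translation then slows, while the messengers of ATF4, ATF5 and CHOP (Ddit3) are translated better because of upstream reading frames. ATF4 pairs with C/EBP proteins on DNA and switches on genes of amino acid supply, and its targets include inhibitors that later end the response. RNA levels do not show how much of this protein is made.

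The libraries held 16930212 to 19197376 reads assigned to genes. Of 10 germline stem cell markers, 1 averaged at least 10 normalized counts (Ifitm3, which many other cells make), and 5 had no read in any library, among them Pou5f1 and Dppa3. Ddx4, a helicase that defines germ cells, had 4 reads in all 6 libraries together. Of 10 leukocyte and mast cell markers, 8 averaged at least 10, with Gata2 at 23743 and Cpa3, a mast cell protease, at 6753, while Fcer1a, a chain of the IgE receptor, had no read and Ms4a2, another chain, had 3. The summed level of that list was 42404 to 43681 under DMSO and 39535 to 42756 under C28. Of 9 fibroblast and feeder cell markers, 7 averaged at least 10, and the lowest sum in each arm was in replicate 1. The label was therefore not borne out by the markers, and the cells are called by their treatment below.

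After C28, 9 of the 10 regulators were higher in 3 of 3 same-numbered pairs of libraries, and Eif2ak4 was the exception. In the data as a whole, 20.6% of tested genes were higher in 3 of 3 pairs. In 8 of the 10, all C28 libraries lay above all DMSO libraries, which 8.16% of all tested genes did. Without a replicate block, 2 of the 10 passed an adjusted p of 0.05 in limma as higher, Atf4 and Trib3, and 0 fell, where 0.121% of all genes rose and 0.0157% fell. With the replicate number as a block, 9 of the 10 rose and 0 fell, where 2.55% of all genes rose and 2.25% fell. The block compares each C28 library with the DMSO library of the same number, since same-numbered libraries deviated together; replicate 1 stood apart in both arms, and replicates 2 and 3 also correlated across their numbers, at 0.54 and 0.41 against 0.68 and 0.71 for the same number. The median log2 fold change of the 10 was 0.81, against 0.00 over all genes tested. The 10 were chosen with earlier results of these data known, so the shares set beside them are descriptions. In such bulk RNA, a change in the share of a cell type and a change in RNA per cell cannot be told apart.

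**Figure D1:**
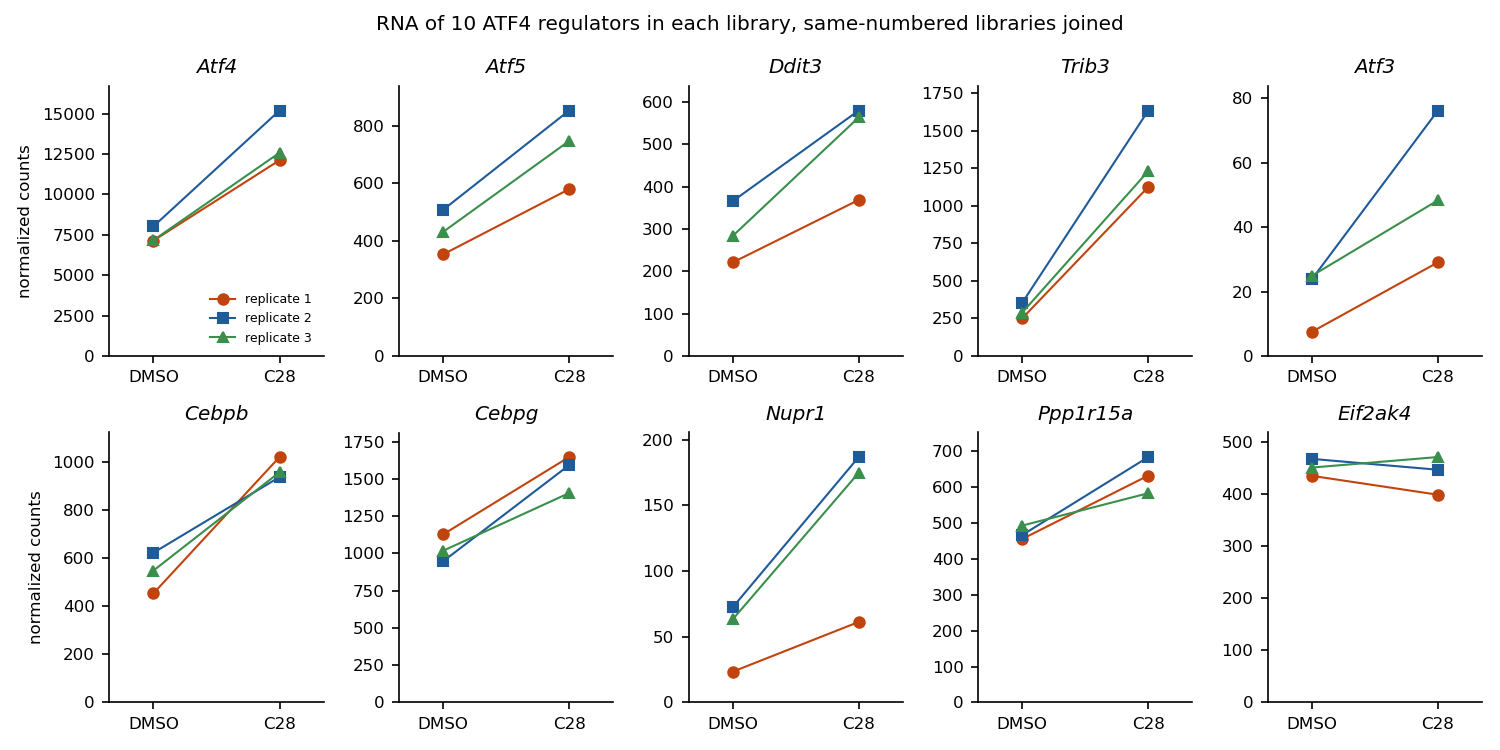
Normalized counts (reads divided by a size factor per library, y axis from 0) of each regulator in the 3 DMSO and 3 C28 libraries, with a line joining libraries of the same replicate number. In 9 of 10 panels all 3 lines go up; the lines of Nupr1 run from 23.4 to 61.2 in replicate 1 and from 72.3 to 187 in replicate 2.

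Atf4, the central transcription factor, was at 7138, 8022 and 7164 normalized counts in DMSO replicates 1 to 3 and at 12112, 15190 and 12577 in C28 replicates 1 to 3. The lowest C28 library was above the highest DMSO library. Atf4 rose 1.78-fold, with a log2 fold change of 0.83 ± 0.10 (SE, n = 3 per group) and an adjusted p of 0.0365 in limma, or 5.14e-06 with the block. The call without the block was lost when any library except C28 replicate 1 was left out, with limma adjusted p of 0.132 without C28 replicate 2 and 0.25 without DMSO replicate 3. Leaving out DMSO replicate 1 gave 0.152, DMSO replicate 2 gave 0.151 and C28 replicate 3 gave 0.188. With the block it was kept when any pair was left out, with a highest adjusted p of 0.0102 by limma.

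Atf5, a relative of ATF4 that acts in stress of mitochondria and of the cytosol, was at 352, 507 and 430 normalized counts under DMSO and 579, 852 and 746 under C28. The groups did not overlap, although replicate 1 was the lowest in both. The ratio of C28 to DMSO was 1.64, 1.68 and 1.73 in pairs 1 to 3, so the pairs agreed more closely than the libraries of an arm did. Atf5 rose 1.68-fold with the block (log2 fold change 0.75 ± 0.07 SE, limma adjusted p 0.000194) and missed the threshold without it (SE 0.18, adjusted p 0.302). RefSeq places Atf5 over part of Nup62 and Il4i1b, and no label says whether strand was used in counting, so reads of overlapping genes may not be told apart.

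Eif2ak4, which encodes the amino acid sensing kinase GCN2, was at 435, 467 and 451 normalized counts under DMSO and 398, 446 and 471 under C28. The arms overlapped, and the pairs went both ways. Its log2 difference was -0.04, with a 95% confidence interval from -0.27 to 0.19 in limma, and from -0.21 to 0.13 with the block.

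Cebpb and Cebpg encode C/EBP transcription factors that can pair with ATF4. Cebpb was at 453, 622 and 548 normalized counts under DMSO and 1020, 937 and 957 under C28. The 3 C28 libraries were close together while the DMSO libraries spread, so the ratio ran from 1.51 in pair 2 to 2.25 in pair 1. Cebpb rose 1.81-fold with the block (log2 fold change 0.85 ± 0.10 SE, limma adjusted p 0.000716). Without the block its adjusted p was 0.072 in limma. Cebpg was at 1127, 947 and 1018 normalized counts under DMSO and 1647, 1592 and 1405 under C28. No library of the 2 groups overlapped, and replicate 1 was the highest in both groups, unlike for Atf5. Cebpg rose 1.50-fold with the block (log2 fold change 0.59 ± 0.06 SE, limma adjusted p 0.000603, and 0.118 without it). The other C/EBP genes did not pass in either fit: Cebpd averaged 121 ± 53.5 under DMSO and 99.5 ± 30.5 under C28, and Cebpa 8.55 ± 3.51 and 4.90 ± 1.33 (SD, n = 3).

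Ddit3 encodes CHOP, a C/EBP relative that lacks usual C/EBP DNA binding and favours cell death in lasting stress. It was at 221, 365 and 283 normalized counts under DMSO and 368, 579 and 563 under C28. The groups came close to touching, since C28 replicate 1 was just above DMSO replicate 2. The ratios of the pairs were 1.67, 1.59 and 1.99. Ddit3 rose 1.74-fold with the block (log2 fold change 0.80 ± 0.09 SE, limma adjusted p 0.000669) and had an adjusted p of 0.442 without it. The Ddit3 gene overlaps Mars1 and Mbd6 in RefSeq. Mars1 (Mars in the table), a tRNA synthetase gene, differed by a log2 of 0.07. Its 95% interval in limma was -0.04 to 0.18 with the block and -0.08 to 0.22 without it. Mars averaged 3506 normalized counts under DMSO and 3684 under C28, far above Ddit3 at 290 and 504. The part of reads from overlapping genes in the level of Ddit3 was not tested.

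Trib3, a pseudokinase that binds ATF4 and CHOP and restrains them, had the highest fold of the 10. It was at 251, 354 and 289 normalized counts under DMSO and 1125, 1633 and 1230 under C28. The C28 libraries lay far above the DMSO libraries, and the pairs gave ratios of 4.49, 4.61 and 4.26. Trib3 rose 4.44-fold (2.15 ± 0.17 SE on the log2 scale, limma adjusted p 0.00807), and with the block it ranked number 1 of all 19054 genes by p (adjusted p 1.48e-07 by limma). Without the block the call was lost when DMSO replicate 3 (adjusted p 0.084), C28 replicate 2 (0.0676) or C28 replicate 3 (0.0696) was left out. Its 95% interval with the block, 2.00 to 2.30 on the log2 scale, lay above that of Atf4, 0.73 to 0.93. The other pseudokinases of the family did not pass in either fit: Trib1 averaged 79.0 ± 18.5 normalized counts under DMSO and 72.9 ± 26.1 under C28 (log2 95% interval -0.65 to 0.33 with the block), and Trib2 3.17 ± 2.00 and 1.73 ± 2.16.

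Ppp1r15a encodes GADD34, which directs protein phosphatase 1 to eIF2α and so brings translation back. It was at 455, 466 and 493 normalized counts under DMSO and 632, 684 and 583 under C28. All C28 libraries were above all DMSO libraries, but pair 3 differed least, with a ratio of 1.18 against 1.39 and 1.47. Ppp1r15a rose 1.34-fold with the block (log2 fold change 0.42 ± 0.08 SE, limma adjusted p 0.0118, and 0.261 without it). With the block the call was lost when any pair was left out, with adjusted p of 0.0521, 0.266 and 0.0506 in limma without pairs 1, 2 and 3. In RefSeq, Tulp2 overlaps Ppp1r15a, and the loci Gm45095 and Gm39087 overlap Cebpg and Nupr1. The relative Ppp1r15b, which keeps eIF2α phosphorylation low in unstressed cells, was at 3000 ± 103 and 3312 ± 303 (SD, n = 3) and did not pass in either fit (limma adjusted p 0.769, and 0.179 with the block).

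Atf3 and Nupr1 are stress-induced regulators that follow ATF4 in many cell types: ATF3 is a bZIP factor that often represses its targets, and NUPR1 is a small chromatin-associated protein. They were the least abundant of the 10 in read number, with 8 to 71 reads per library for Atf3 and 25 to 174 for Nupr1. Atf3 was at 7.48, 23.8 and 24.9 normalized counts under DMSO and 29.1, 76.2 and 48.3 under C28. The groups did not overlap, but C28 replicate 1 with 28 reads (exact Poisson 95% interval 18.6 to 40.5, counting error only) was within counting error of DMSO replicate 3 with 26 (17.0 to 38.1). Atf3 rose 2.76-fold with the block (log2 fold change 1.46 ± 0.28 SE, limma adjusted p 0.0128, and 0.551 without it). The call was lost without pair 1 (0.0536), pair 2 (0.264) or pair 3 (0.0658). Its pairs gave ratios of 3.88, 3.20 and 1.94, the widest range among the 10.

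Nupr1 was at 23.4, 72.3 and 63.1 normalized counts under DMSO and 61.2, 187 and 175 under C28. Its groups overlapped, because replicate 1 was low in both arms and C28 replicate 1 lay below 2 of the DMSO libraries. Within pairs the ratios were 2.62, 2.58 and 2.77. Nupr1 therefore had an adjusted p of 0.596 without the block (SE 0.55) and rose 2.62-fold with it (log2 fold change 1.39 ± 0.16 SE, limma adjusted p 0.000771). Of the 9 fibroblast and feeder cell markers, 7 were also lowest in replicate 1 of each arm, with summed levels of 1088 to 2732 under DMSO and 1139 to 2848 under C28. Of the 10 leukocyte and mast cell markers, 4 were lowest in replicate 1 of each arm and 2 were highest there. Among the 4, Hdc, which makes histamine, was at 1.87 and 2.08 in replicate 1 against 97.6 to 117 in the other libraries, and the macrophage marker Adgre1 at 766 and 745 against 1465 to 1833. The part of these markers in the level of Nupr1, or of any other regulator that was lowest in replicate 1 of both arms, was not tested.

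**Figure D2:**
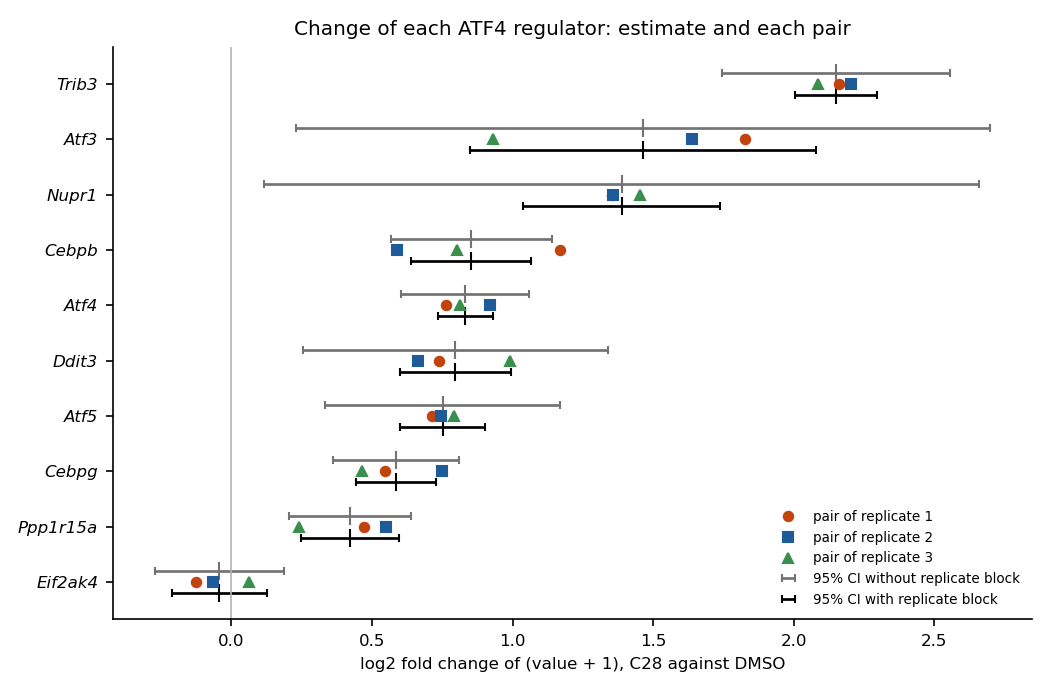
Log2 fold change of (value + 1) for C28 against DMSO (x axis) of each regulator (y axis), with coloured points for the 3 same-numbered pairs, a tick for the limma estimate and bars for its 95% confidence interval without (grey) and with (black) the replicate block. Trib3 lies highest at 2.15, the interval of Eif2ak4 spans 0, and the block narrows the interval of Nupr1 from 0.12 to 2.66 down to 1.04 to 1.74.

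How firmly the rises with the block stand differed among the 9. Atf4, Atf5, Trib3 and Cebpb were called with any 1 of the 3 pairs left out. Ddit3, Cebpg and Nupr1 were called without pair 1 or pair 3 but not without pair 2, with limma adjusted p of 0.0531, 0.0617 and 0.0726. With the block and pair 2 left out, 0.22% of all genes rose. The count tests gave 2 of the 10 in edgeR's quasi-likelihood test without a block (0.131% of all genes rose) and 6 in DESeq2 (0.635%), which added Cebpb, Cebpg, Atf5 and Ppp1r15a. With the block both tools called the same number as limma, 9 of the 10, where 3.71% of all genes rose in edgeR and 2.07% in DESeq2. In the authors' deposited table the same 6 have an adjusted p under 0.05, with Ddit3 at 0.05105. The authors' log2 fold changes were lower than those given here for all 9. They were 1.48 for Trib3, 0.71 for Atf4, 0.35 for Nupr1 and 0.30 for Atf3, against 2.15, 0.83, 1.39 and 1.46 by limma. DESeq2 without a block, on the recovered reads, gave 2.16, 0.84, 1.41 and 1.45 for the same genes. Its adjusted p for Nupr1 and Atf3, 0.138 and 0.239, was near the authors' 0.169 and 0.274. How the authors' fold changes were computed is not stated, so they may be another measure than those given here.

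The promoters of Atf3 and Nupr1 are shown because they hold the same 8 letters at the same distance from the start, and those of Trib3 and Ppp1r15a because they also hold letters that ATF4-type factors are known to read. RefSeq promoter windows (GRCm38.p6, 250 bases before to 50 after each annotated start) were found for all 10 regulators, 12 windows in all. Capitals mark the C/EBP-ATF response element, searched as TGATGNAA, or the cAMP response element, searched as TGACGTCA, on both strands. For Atf3, Nupr1 and Ppp1r15a the last bases before the start are given, on the gene's strand, and for Trib3 30 bases around its match, which begins 15 bases after the start.
Atf3, chr1:191183334-191183483, minus strand: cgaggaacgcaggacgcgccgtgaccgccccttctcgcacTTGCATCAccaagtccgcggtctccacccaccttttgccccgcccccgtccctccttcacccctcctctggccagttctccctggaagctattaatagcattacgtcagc
Nupr1, chr7:126625471-126625620, minus strand: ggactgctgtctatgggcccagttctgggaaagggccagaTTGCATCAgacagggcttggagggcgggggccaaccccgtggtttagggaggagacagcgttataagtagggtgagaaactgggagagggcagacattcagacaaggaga
Trib3, chr2:152344028-152344057, minus strand: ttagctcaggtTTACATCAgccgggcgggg
Ppp1r15a, chr7:45526269-45526418, minus strand: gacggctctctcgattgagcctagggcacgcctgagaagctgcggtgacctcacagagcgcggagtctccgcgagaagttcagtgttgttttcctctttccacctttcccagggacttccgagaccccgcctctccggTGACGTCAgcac

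The letters TTGCATCA, the reverse complement of the element, begin at base -110 from the start in both Atf3 and Nupr1. These 2 had the highest folds after Trib3, but also the fewest reads and the widest SE without the block (0.53 and 0.55). In the authors' deposited values their log2 fold changes were the lowest of the 9 (0.299 and 0.35), but those values may be another measure of change. DESeq2 without a block, on the recovered reads, gave 1.45 for Atf3 and 1.41 for Nupr1. A link between these letters and the size of a rise was not tested. In all, 3 of the 10 regulators had the C/EBP-ATF element in a window, against 4.51% of 27025 genes. Of 34 matched ATF4 target genes (listed below) 10 had it, among them Asns, Chac1, Slc7a11 and Herpud1, and of 17 matched genes of the ATF6 and XBP1 arms 0 had it. The cAMP response element was in 1 of the 10, Ppp1r15a, and in 2.03% of all genes. The antioxidant response element, searched as TGACNNNGC, was in 2 of the 10, Cebpb and Ppp1r15a, and in 14% of all genes. It was in 13 of the 34 ATF4 target genes, more than the C/EBP-ATF element, and in 4 of the 17 ATF6 and XBP1 arm genes. The heat shock element, searched as GAA, TTC and GAA with 2 bases between neighbours, was in 0 of the 10 and 0.662% of all genes. The endoplasmic reticulum stress element, searched as CCAAT and CCACG with 9 bases between them and so overlapping the CCAAT box, was in 0 of the 10, in 8 of the 17 ATF6 and XBP1 arm genes and in 0.137% of all genes. The CCAAT box alone was in 5 of the 10 and in 41.1% of all genes. The 12 windows of the regulators had a median of 59.8% G or C and 22 CG steps, against 52.7% and 7 over all 32851 windows. The shares above were not matched for this make-up. A match is a description of letters and no match says only that these letters are not in these windows.

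**Figure D3:**
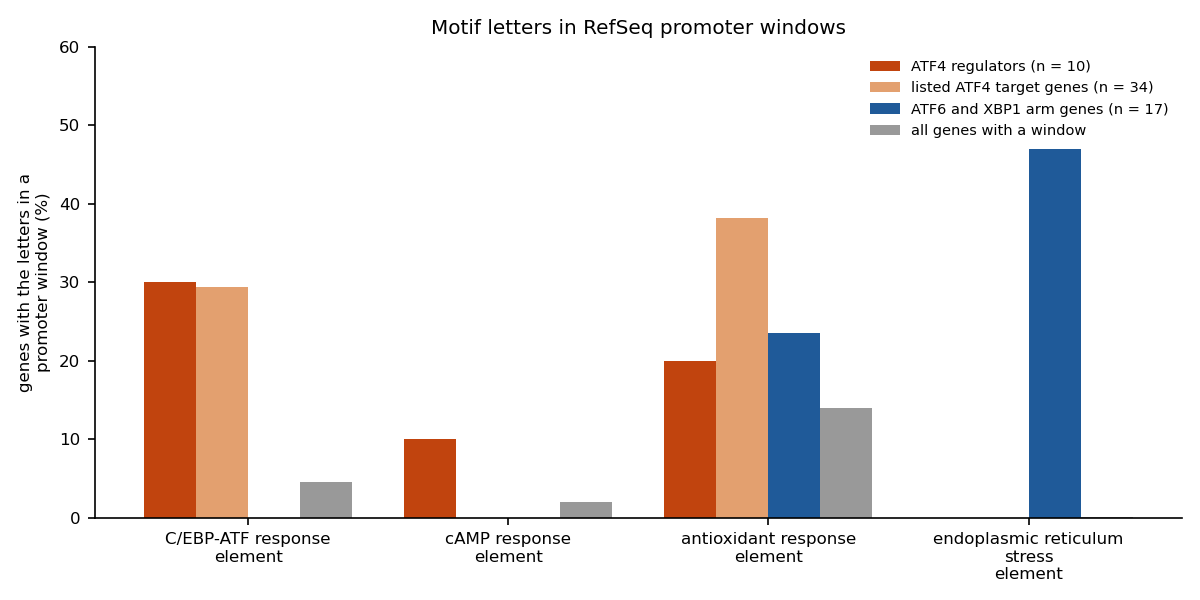
Share of genes (y axis, %) with the letters of 4 response elements (x axis) in a RefSeq promoter window, for the 10 ATF4 regulators, 34 matched ATF4 target genes, 17 matched genes of the ATF6 and XBP1 arms and all 27025 genes with a window. The C/EBP-ATF element is in 3 of the 10 regulators and 10 of the 34 targets, and the endoplasmic reticulum stress element in 8 of the 17 arm genes. The antioxidant element is in 13 of the 34 targets.

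The same letters were followed in genes outside all lists. Among 320 tested genes outside the lists with the C/EBP-ATF element in a window, 23 rose and 7 fell with the block (7.19% and 2.19%), against 3.20% and 2.95% of the 11787 tested genes with a window. The other letters gave 3.47% rising and 4.21% falling among 404 such genes with the cAMP element, 4.02% and 2.94% among 1939 with the antioxidant element, and 3.29% and 2.81% among 4980 with the CCAAT box. Of 72 with the heat shock element 2 rose and 2 fell, and of 14 with the endoplasmic reticulum stress element 0 did. Among the listed ATF4 target genes tested, 7 of 9 with the C/EBP-ATF letters rose with the block, and 14 of 24 without them. For the antioxidant letters it was 9 of 13 with them and 12 of 20 without. These shares are descriptions, and neighbouring or related genes may share windows.

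Upstream of ATF4, few genes of the pathway passed the test. Of 6 genes of the eIF2α kinases and their co-activators other than Eif2ak4, 0 passed an adjusted p of 0.05 without the block in limma and edgeR and 1 in DESeq2, and 1 rose and 1 fell with it in limma. At an unadjusted p under 0.05 in limma without the block there were 2 of the 6, where 7.83% of all genes were. Eif2ak2, the double-stranded RNA sensor PKR, was at 890 ± 86.8 normalized counts under DMSO and 731 ± 73.8 under C28, a fall to 0.821-fold with the block (limma adjusted p 0.0223, and 0.587 without it). Impact, which binds GCN1 and so holds back GCN2, was at 2439 ± 118 and 3305 ± 115 and, with the block, rose 1.36-fold (limma adjusted p 0.00116, and 0.0784 without it). Eif2ak1, the haem-regulated kinase, was at 1729 ± 12.0 and 1653 ± 65.0, and Eif2ak3, the endoplasmic reticulum kinase PERK, at 484 ± 54.5 and 557 ± 55.9, and neither passed (adjusted p with the block in limma 0.556 and 0.341). Of 12 genes for eIF2, eIF2B and the eIF2α phosphatase other than Ppp1r15a, 0 rose and 1 fell with the block in limma. The gene that fell was Ppp1cc, a catalytic subunit (0.859-fold, limma adjusted p 0.0177, and 0.931 without the block). The median log2 fold change of the 12 was -0.07. Without the block, limma, edgeR and DESeq2 each called 0 of them, and 0 were at an unadjusted p under 0.05 in limma. When the block was used, edgeR and DESeq2 each called 2 of the 12 as falling, Ppp1cc and Eif2b1, a subunit of eIF2B. Of all 19054 genes, 625 fell in edgeR and 346 in DESeq2 with the block. Eif2b1 had an adjusted p of 0.0158 in edgeR and 0.0493 in DESeq2, and missed in limma (0.0518, 0.844-fold), all with the block. In limma, 6 of the 12 had an unadjusted p under 0.05 with the block, in either direction. Over all 19054 genes the number at such a p lay between 2933 and 3694. These were the limma ranks with the block of the listed genes Dnajb9 (unadjusted p 0.0368) and Manf (0.057). With the block, the calls of Eif2ak2 and Ppp1cc were lost in limma without pair 2 (adjusted p 0.289 for both) or pair 3 (0.169 and 0.18), and that of Impact without pair 2 (0.0763). Eif2ak2 also missed in DESeq2 with the block (0.0548).

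Among 16 tested ATF and CREB family genes outside the 10 regulators, 0 passed without the block and 3 rose with it. Jdp2, a close relative of ATF3, was at 325 ± 20.6 normalized counts under DMSO and 573 ± 69.5 under C28 and, with the block, rose 1.76-fold (limma adjusted p 0.000306, and 0.072 without it). Creb1, a factor that answers cAMP, rose 1.24-fold (adjusted p 0.00911) and Atf6, the membrane-bound factor of endoplasmic reticulum stress, 1.17-fold (adjusted p 0.0326), both with the block in limma. These calls were lost in limma without pair 2 (adjusted p 0.0531 for Jdp2, 0.232 for Creb1 and 0.414 for Atf6), and those of Creb1 and Atf6 also without pair 3 (0.0733 and 0.174). Without the block, edgeR called 0 of the 16 and DESeq2 1 at an adjusted p under 0.05, and limma had 3 at an unadjusted p under 0.05, against the 7.83% of all genes.

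Downstream, 43 ATF4 target genes were tested, and 3 rose without the block and 0 fell, where 0.121% of all genes rose and 0.0157% fell. With the block 25 rose, 1 fell and 17 did not pass, where 2.55% of all genes rose and 2.25% fell. The median log2 fold change of the 43 was 0.27. The list was drawn up with earlier results of these data known. The highest rises were those of Chac1, which breaks down glutathione (51.5 ± 10.5 to 221 ± 49.3 normalized counts, 4.20-fold), and Slc7a11, the cystine importer (1625 ± 625 to 5619 ± 1685, 3.55-fold with the block). Slc6a9, a glycine transporter, followed with 431 ± 52.9 and 1288 ± 92.6 (2.99-fold), and Sesn2, which restrains mTORC1, with 793 ± 69.5 and 1619 ± 127 (2.04-fold). Limma gave Chac1, Slc6a9 and Sesn2 an adjusted p of 0.0333, 0.00416 and 0.0109 without the block, and Slc7a11 0.172. Leaving out DMSO replicate 3 or C28 replicate 2 gave adjusted p of 0.196 and 0.337 for Chac1 and 0.103 and 0.128 for Sesn2. Without DMSO replicate 1 or C28 replicate 3 it was 0.114 and 0.227 for Chac1 and 0.0624 and 0.0856 for Sesn2, and Chac1 also missed without DMSO replicate 2 (0.109). Slc6a9 missed without C28 replicate 2 (0.0676). With the block, limma called these 4 with any pair left out.

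Asns, asparagine synthetase and a standard ATF4 target, was at 3891 ± 1041 normalized counts under DMSO and 4950 ± 876 under C28, and, with the block, rose 1.29-fold (limma adjusted p 0.00322, and 0.747 without it). Its DMSO values were 5063, 3535 and 3074 and its C28 values 5888, 4810 and 4153, so the groups overlapped and replicate 1 was the highest in both. Its call with the block was lost without pair 2 (0.182) or pair 3 (0.107). Of other targets that make amino acids or folate units, Pycr1, Gpt2, Mthfd2 and Psph rose 1.46-fold, 1.40-fold, 1.21-fold and 1.21-fold with the block, and limma did not call them without pair 2 (adjusted p 0.211, 0.121, 0.276 and 0.344). Pycr1, Mthfd2 and Psph were not called without pair 3 either (0.0998, 0.179 and 0.316). Psat1 and Phgdh, which make serine, had log2 differences of 0.07 and -0.05 and did not pass. Fgf21, a hormone gene that ATF4 can induce, had no read, and Gdf15, a stress cytokine, averaged 1.90 under DMSO and 2.77 under C28. Ddit4, an inhibitor of mTORC1, was at 531 ± 285 and 705 ± 188 and, with the block, rose 1.41-fold (limma adjusted p 0.037, and 0.827 without it). That call was lost without pair 2 (0.413) or pair 3 (0.266) and in DESeq2 with the block (0.213), and the log2 fold change ran from 0.33 to 0.71 as pairs were left out. Sqstm1, the autophagy receptor p62, and Bbc3, the pro-death protein PUMA, rose 1.83-fold and 1.68-fold with the block, by limma, and Bbc3 missed without pair 2 (0.0726). Angptl4, a lipase inhibitor, was the target that fell (to 0.803-fold with the block, adjusted p 0.0477 in limma), and its call was lost without pair 1, 2 or 3 (0.0819, 0.261 and 0.171).

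In the other arms of endoplasmic reticulum stress the differences were small and mostly upward, and the difference from the regulators was not tested. Of 19 genes of the ATF6 and XBP1 arms, 0 passed without the block in limma (0 at an unadjusted p under 0.05, and 0 by edgeR or DESeq2), 1 rose with it, and the median log2 fold change was 0.07. With the block, 3 were at an unadjusted p under 0.05 in limma. Of the 19, 15 were above 0, where 9711 of 19054 genes were. Higher in 3 of 3 pairs were 9, where 20.6% of all genes were. In 1, all C28 libraries lay above all DMSO libraries, where 8.16% of all genes did. Hspa5, the main chaperone of the endoplasmic reticulum, was at 23130 ± 2848 normalized counts under DMSO and 24316 ± 3043 under C28, a log2 difference of 0.07 with a 95% interval from -0.02 to 0.16 with the block. Xbp1 was at 3927 ± 849 and 4180 ± 1295, and Dnajb9, a co-chaperone gene that XBP1 induces, at 251 ± 6.39 and 291 ± 4.02 (limma adjusted p 0.239 with the block). Ern1, the sensor IRE1α, was the 1 gene that rose with the block (1.21-fold, limma adjusted p 0.0485), and it missed without pair 1, 2 or 3 (0.117, 0.371 and 0.143) and in DESeq2 with the block (0.0983). Herpud1, which both arms and ATF4 can induce, was counted with the ATF4 targets and, with the block, rose 1.50-fold (limma adjusted p 0.000544, and 0.0726 without pair 2). The table holds gene totals, so splicing of Xbp1, which marks an active IRE1α arm, was not measured.

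**Figure D4:**
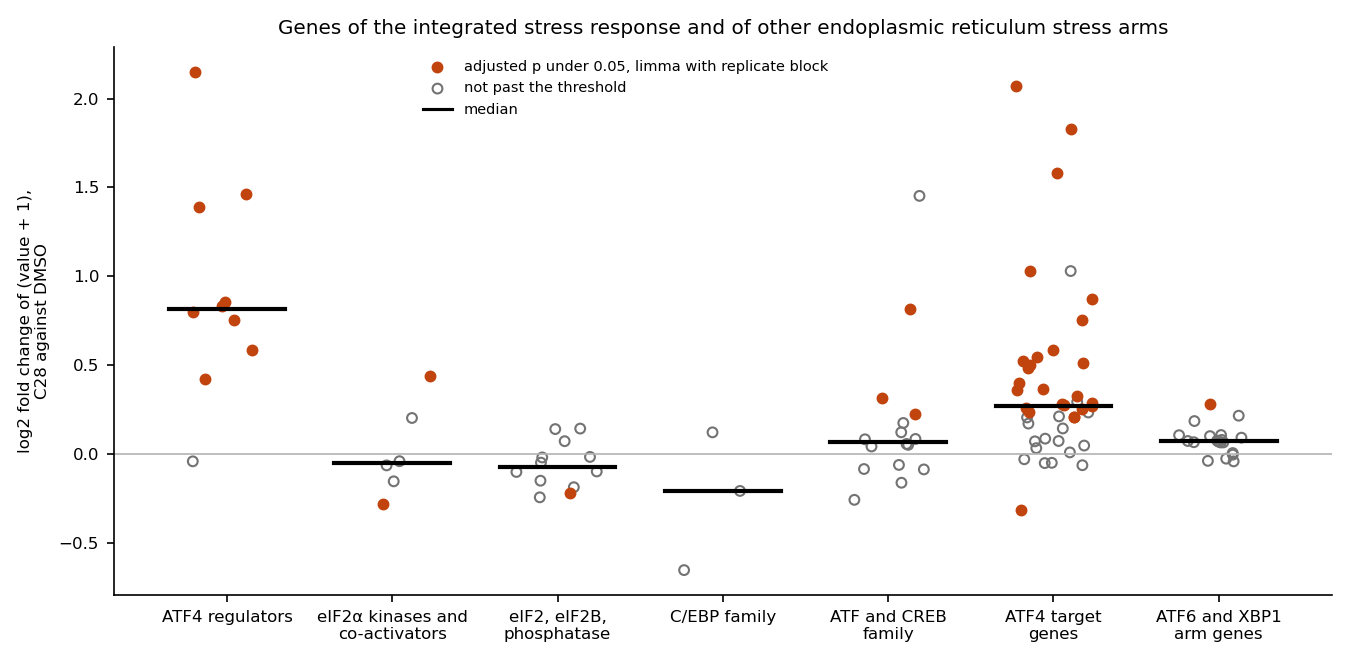
Log2 fold change of (value + 1) for C28 against DMSO (y axis) of each tested gene in the 10 regulators and 6 further lists (x axis, regulators left out of those lists), with filled points past an adjusted p of 0.05 in limma with the replicate block and a bar at each median. The medians are 0.81 for the regulators, 0.27 for the ATF4 targets, 0.07 for the ATF6 and XBP1 arm genes and -0.05 for the eIF2α kinases and co-activators.

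The genes whose pattern was most like that of Atf4 were found among 9676 genes averaging at least 100 normalized counts, outside the lists, by Pearson correlation of log2(value + 1) over the 6 libraries. They were Mdm2, the ubiquitin ligase of p53 (r = 0.998), Chic2 (0.997), Psmd5, a proteasome assembly factor (0.993), Hsp90aa1, an inducible HSP90 chaperone (0.991), and Trim35 (0.991). Of the regulators, Trib3 had an r of 0.995 with Atf4, Ppp1r15a 0.959, Atf5 0.942 and Cebpb 0.933. The lowest were Nupr1 (0.790) and Eif2ak4 (-0.14). These values describe 6 libraries that include both treatments, so the correlation takes in the difference between treatments as well as that among replicates.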

How the data were processed

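RNA was measured in 6 libraries, 3 with DMSO and 3 with C28, grouped by the sample titles. The submitters' processing notes name mm9, Bowtie2 and Cufflinks 2.2.1 without saying what each was for; how reads were counted is not given in the sources used here. Values in the deposited table are a signal, reads per gene that the authors scaled by a size factor for each library: every value (100%) came out as a whole number of reads, to within 0.01, after division by the smallest value above 0. The authors' own log2 fold changes and adjusted p-values stand beside them. A fold change here is of log2(value + 1), which understates the change of low genes.

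Names with several rows were reduced to the row with the highest mean. The test was limma 3.58.1 (R 4.3.3) on log2(value + 1) with a trended prior, for the 19054 genes that reached 1 in 3 or more libraries, with Benjamini-Hochberg adjustment over all of them. edgeR 4.0.16 and DESeq2 1.42.0 ran on the recovered reads. Deviations from the arm means correlated between same-numbered libraries at 0.84, 0.68 and 0.71 over 10572 genes averaging at least 50. Between replicates 2 and 3 across numbers the correlations were 0.54 and 0.41. The numbers were taken as pairs because every same-numbered pair was above 0.1, from the data and not from a label. Replicates 2 and 3 were above 0.1 across numbers too, so that mark cannot tell which of these libraries belong together. Replicate 1 stood apart in both arms, which bears on all of these correlations. Libraries of an arm always differed by more than counting noise (chi-square per gene 5.23 to 29.0). On data simulated with a shared replicate effect, limma recovered 48% of changes of 1 on the log2 scale without the block and 95% with it, among 19054 genes. Simulated without that effect, the data gave 98% without the block and 97% with it. The effect was built in, so a gain from the block was fixed in advance. It was also separate for each replicate number, unlike here, where replicate 1 stood apart. The simulation therefore cannot show that the numbers are true pairs.

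The 10 genes and all lists were chosen with earlier results of these data known. Named genes were all 10, fixed genes of each list, and per list up to the 6 largest changes past the threshold in either fit. Genes outside that rule (Psat1, Phgdh, Psph, Pycr1, Gpt2, Mthfd2, Fgf21, Gdf15, Angptl4, Herpud1, Mars, Eif2b1) were chosen after their values were seen. Promoter windows came from RefSeq (GRCm38.p6), matched by symbol or synonym. The H3K27ac peak lists were not used here, because no gene positions in their build were at hand.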

Additional observations from a re-analysis of the deposited data

How the results depend on the processing

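The 10 regulators kept their direction in all 24 other settings run, except Eif2ak4, whose log2 fold change ranged from -0.0953 to 0.0247 with 1 library left out. Over those 240 values, 181 kept their side of the threshold, 12 lost it and 46 gained it. The pairing decided most calls. Without a block the counts were 2 regulators, 26 genes of all tested and 3 other list genes. With the replicate block they were 9, 914 and 33. With the block and replicate 1 left out of both arms they were 7, 853 and 37, with replicate 2 left out 4, 50 and 5, and with replicate 3 left out 7, 207 and 13. DESeq2 without a block gave 6, 182 and 13. Leaving out 1 library gave 0 to 2 regulators, 0 to 23 genes and 0 to 4 list genes. Settings chosen after seeing the data gave 9, 1332 and 36 for edgeR with the block, 9, 741 and 32 for DESeq2 with the block, and 9, 867 and 31 for TMM scaling with the block. Leaving replicate 1 out of both arms without a block gave 4, 91 and 8, and leaving out replicate 2 or replicate 3 gave 0, 0 and 0 by limma. The cause was not tested. Other pseudocounts, filters and scalings without the block kept each count within 1.5 times. Of 25 named list genes, 5 changed sign in some setting, none of them called without the block. With 1 library left out, Trib1 ranged from -0.374 to 0.168, Cebpd from -0.65 to 0.0751, Hspa5 from -0.0289 to 0.168, Xbp1 from -0.173 to 0.239 and Ppp1cc from -0.443 to 0.0488 on the log2 scale. Without replicate 1, with or without the block, Trib1 was at 0.16 and Xbp1 at -0.00226. Atf3 had the fewest reads of the 10, 8 to 71 a library, which limits its precision. The planned peak settings were not run, since no peak was assigned to a gene.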
